A study of Mus musculus with 120 samples.

Results

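Desulfovibrionaceae is the bacterial family that holds Desulfovibrio and Bilophila, and it is described here across the colon and cecum of mice on chow or with antibiotics under 5 light cycles. Its members were taken from the taxonomy that the authors assigned to each amplicon sequence variant, which is 1 distinct sequence of the 16S rRNA gene. Of 13844 variants in the table, 367 carried the family name. Desulfovibrio was the genus of 203 of them and Bilophila of 4, and the other 160 had no genus name. These made up 3 of 583 genus names, the variants with no genus name being counted as one. Variants are called V1, V2 and so on in falling order of their mean share of counts over all samples. Of the 367 variants, 346 were filed under the phylum Desulfobacterota and 21 under Proteobacteria, where the family stood in older taxonomies.

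Desulfovibrio species are anaerobes that respire sulfate, with hydrogen or organic acids such as lactate as electron donors, and release hydrogen sulfide. Bilophila respires sulfite, which it frees from taurine, the sulfur-containing amino acid that mice conjugate to most of their bile acids, and it too releases hydrogen sulfide. In the gut both take electrons left over from fermentation, alongside acetogens and methanogens, and members of the family live in the lumen and at the mucus layer.

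The samples were 16S amplicon libraries of colon and cecum contents from C57BL/6N mice that were 10 weeks old at the start, were acclimatised for 7 days and were studied for 42 days. The design names 240 mice, 24 for each of the 10 combinations of diet and light cycle, each in its own cage. Chow groups had sterilised water and an irradiated cereal, soybean and meat meal feed, and antibiotics groups ate that feed and drank water with a mixture of broad-spectrum antibiotics, whose drugs and doses the labels do not state. Daily light lasted 0, 8, 12, 16 or 24 h, and the cycles are written LD0/24, LD8/16, LD12/12, LD16/8 and LD24/0. Each of the 20 groups had 6 libraries, except for 5 in the colon with antibiotics under LD8/16 and 7 in the cecum on chow under LD8/16. Total counts ran from 39157 to 73076 a library, so that 3 counts, the most that a count of 0 allows, were 0.00411% to 0.00766% of a library. This limit covers counting error only. Nothing in the labels ties a library to a mouse, so p-values measure the spread between these libraries.

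Libraries did not stand singly. In 86 of 120 libraries, low-level variants of 12 genera outside the family took at least 1% of counts. The pattern of these 91 variants was used to divide the 86 libraries into 12 sets, each holding libraries of 2 groups. A set was allowed at most 8 libraries, a chosen limit on which the size and number of sets depend. Sets were derived from the counts alone, and no label gives them. Fusobacterium and Limosilactobacillus, both among the 12 genera, were themselves called between diets at both sites and among light cycles in the colon (edgeR). Bifidobacterium, another of the 12, was called between diets in the colon. It was also called among light cycles in the colon on both diets and in the cecum with antibiotics. Sets can thus partly follow the groups, and a call lost with the set as a block cannot tell set from group. Colon libraries lay in sets in 29 of 30 cases on chow and 29 of 29 with antibiotics, cecum libraries in 28 of 30 with antibiotics and in 0 of 31 on chow. Only 2 sets held both diets, 1 of them across sites. The site on a given diet, and the diet in the cecum, cannot be told apart from the set. The genus results on diet and light cycle that can be fitted with the set as a block are given with it.

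On chow, Desulfovibrio was among the leading genera of both sites. In the colon its lowest, median and highest shares of counts were 1.08%, 2.42% and 18.1%, with a mean of 4.44% ± 4.10 (SD, n = 30), the 4th highest mean of 376 genus names detected there. In the cecum on chow the lowest, median and highest shares were 2.99%, 9.46% and 52.4%, with a mean of 15.9% ± 14.0 (SD, n = 31), the 3rd highest mean of 369 genus names. It was the most abundant genus in 7 of 31 cecum libraries and in 0 of 30 colon libraries on chow. The spread between libraries was wide at both sites, and the 2 sites overlapped.

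With antibiotics, Desulfovibrio was a minor genus. Its shares in the colon ran from 0.0258% over a median of 0.0664% to 0.557%, with a mean of 0.0893% ± 0.0958 (SD, n = 29), the 31st highest mean. In the cecum they ran from 0.0356% over a median of 0.0726% to 1.68%, with a mean of 0.177% ± 0.336 (SD, n = 30), the 19th highest mean. Every chow library lay above every antibiotics library of its site, while the genus was still counted in all 59 libraries with antibiotics.

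The variants with no genus name came second in the family. On chow their lowest, median and highest shares were 0.0555%, 0.596% and 14.1% in the colon (mean 2.02% ± 3.06, SD, n = 30), while the cecum had 0.00444%, 0.410% and 5.48% (mean 1.00% ± 1.34, SD, n = 31). With antibiotics they ran from 0.00608% to 0.0679% in the colon (median 0.0340%, mean 0.0354% ± 0.0185, SD, n = 29) and from 0 to 0.0763% in the cecum (median 0.0243%, mean 0.0284% ± 0.0219, SD, n = 30). Diets overlapped for these variants at both sites, and their colon and cecum libraries overlapped on chow.

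Bilophila was rare everywhere. On chow it was detected in 20 of 30 colon libraries, with a median of 0.0124% and a highest share of 0.0698% (mean 0.0190% ± 0.0203, SD, n = 30). In the cecum on chow it was detected in 28 of 31 libraries, with a median of 0.0148% and a highest share of 0.160% (mean 0.0329% ± 0.0439, SD, n = 31). With antibiotics it was detected in 9 of 29 colon and 4 of 30 cecum libraries, its median was 0 at both sites, and its highest shares were 0.0118% and 0.00920%. The diets overlapped because some chow libraries also had no Bilophila counts, and the order of the 3 genus names by mean share was the same in all 4 combinations of site and diet: Desulfovibrio, variants with no genus name, Bilophila.

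**Figure D1:**
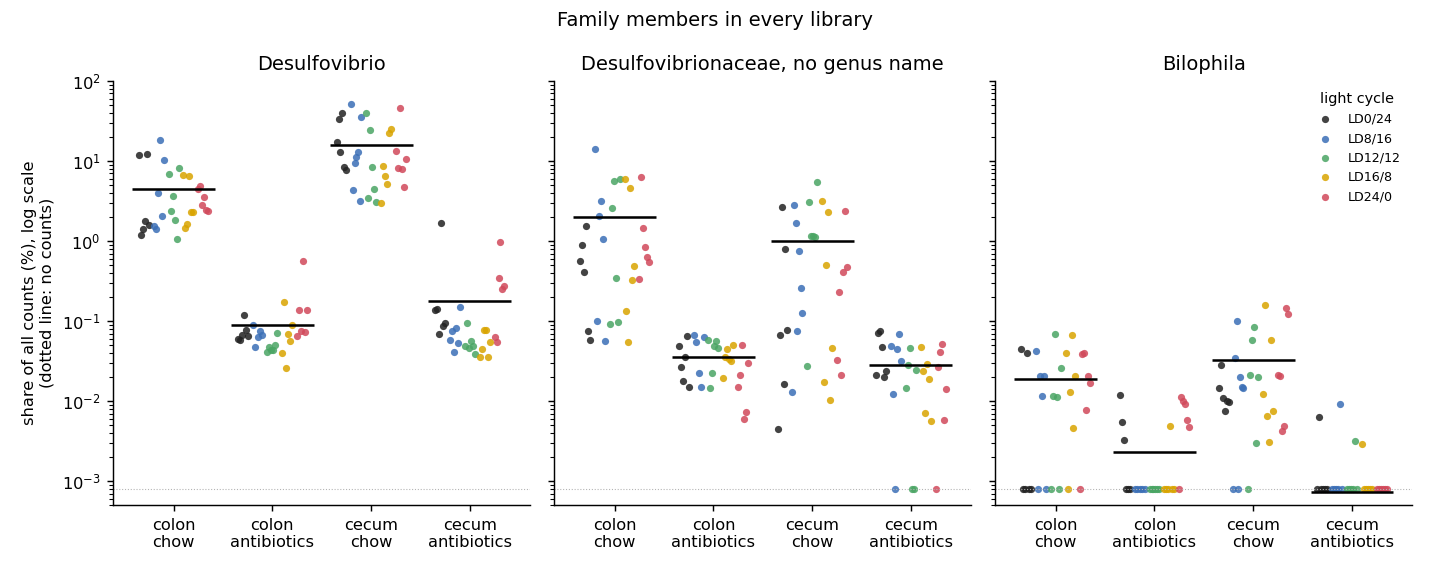
Share of all counts (%, log scale) of Desulfovibrio, of family variants with no genus name and of Bilophila in each library, by site and diet. Points are libraries coloured by light cycle, bars are means and points on the dotted line had no counts. Desulfovibrio on chow lies above 1% in every library and with antibiotics mostly near 0.07%.

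The family was led by a few variants. V1, a Desulfovibrio variant with no species name, held 83.9% of the family's counts and was the 1 variant of the family detected in all 120 libraries. V2, which has no genus name, held 10.9%, and V3, filed as Desulfovibrio sp., held 1.68%, so that the first 3 variants held 96.5%. Among the rest, 250 of the 367 variants were seen in 1 library, 75 in 2 to 4 and 42 in 5 or more, and 348 never reached 0.1% of a library. On chow 359 variants were detected and with antibiotics 19. The lowest count above 0 in the table was 2, so variants counted once in a library are not represented.

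V1 set the level of Desulfovibrio on chow. Its lowest, median and highest shares were 0.374%, 2.23% and 17.6% in the colon (mean 4.06% ± 4.03, SD, n = 30) and 2.48%, 9.04% and 52.2% in the cecum (mean 15.5% ± 14.1, SD, n = 31), where it was the most abundant variant of the whole table by mean share. V2 ran from 0.0457% over 0.565% to 13.0% in the colon (mean 1.82% ± 2.78, SD, n = 30) and from 0.00444% over 0.248% to 4.76% in the cecum (mean 0.868% ± 1.17, SD, n = 31). V3 was detected in 23 of 30 colon and 23 of 31 cecum libraries on chow, with a colon mean of 0.220% ± 0.789 (SD, n = 30) and a cecum mean of 0.0751% ± 0.127 (SD, n = 31). The colon mean of V3 rested on replicate 2 of LD24/0, at 4.34%, a library in which V1 was at its lowest, 0.374%, and V2 at 5.20%.

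V1 and V2 took turns in single libraries. In replicate 1 of LD8/16 in the colon on chow, V2 reached 13.0% with V1 at 1.37%, while in replicate 1 of LD8/16 in the cecum V1 reached 52.2% with V2 at 0.0131%. Across the 31 cecum libraries on chow the Spearman correlation of the 2 shares was -0.717, and across the 30 colon libraries it was 0.0808. Shares of one library sum to 100%, so a high V1 leaves less room for every other variant. In the colon on chow V2 went with V3 at 0.511 and with Bilophila at 0.760 (Spearman, n = 30), and these correlations are descriptions of libraries that differ in depth and set.

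Next in order came V4, with no genus name, and V5, a Desulfovibrio variant, whose mean shares on chow were 0.0338% and 0.0211% in the colon, and in the cecum 0.0304% and 0.0215%. V4 was counted in 1 of 29 colon and 1 of 30 cecum libraries with antibiotics. V5, V6, V7, V8 and V10 were counted in none of them. V7 was filed under the name of an enrichment culture clone of Desulfovibrio, and V10, also a Desulfovibrio variant, was seen in 7 of 30 colon and 7 of 31 cecum libraries on chow.

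**Figure D2:**
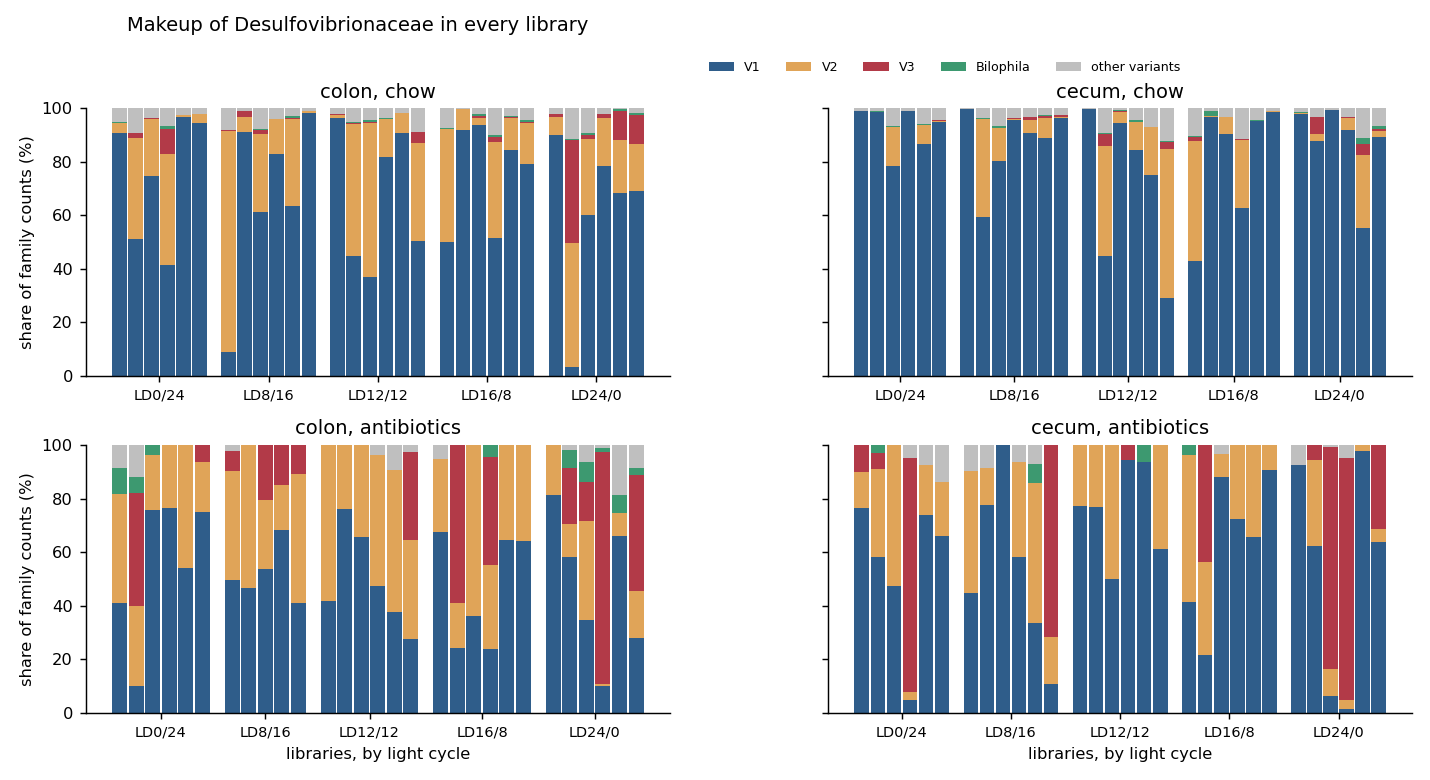
Makeup of the family's counts (%) in each library as stacked bars for V1, V2, V3, Bilophila and all other variants, by site, diet and light cycle. On chow V1 leads most bars, and with antibiotics V2 or V3 leads in more of them.

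Antibiotics were set against chow at each site. Relative to chow, Desulfovibrio in log2 units fell by 5.74 in the colon (SE 0.36, edgeR quasi-likelihood test with Benjamini-Hochberg adjustment over all genera, adjusted p = 6.51e-23). Its cecum share fell by 7.01 (SE 0.47, edgeR adjusted p = 5.6e-22). The variants with no genus name fell by 5.66 (colon, SE 0.52, edgeR adjusted p = 2.82e-15), and in the cecum they fell by 5.02 (SE 0.66, edgeR adjusted p = 3.07e-10). Bilophila fell by 3.82 in the colon (SE 0.80, edgeR adjusted p = 2.04e-05) and fell by 5.15 in the cecum (SE 0.73, edgeR adjusted p = 2.5e-09). In the cecum it was detected in 4 of 30 antibiotics libraries and met the filter only through chow, so its cecum call is not a result. All 29 colon and all 30 cecum libraries with antibiotics lay below the chow mean for each of these 3 genus names. Bilophila's median with antibiotics was 0 at both sites, and the fits called 166 of 258 genera lower in the colon and 148 of 255 in the cecum. All 3 passed where 81% of 258 genera passed in the colon and 91.4% of 255 in the cecum, so passing did not set the family apart. The median log2 change of all genera tested was -3.62 in the colon and -2.87 in the cecum.

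These are changes of a share of counts. Fewer of these bacteria and more of the others cannot be told apart in such counts, and the size of the change moved with the scaling. With TMMwsp factors, which assume that most genera do not change, Desulfovibrio fell by 3.54 in the colon while the median genus fell by 2.32. On centred log-ratios (limma) it fell by 3.83 in the colon while the median was 0.30, and 106 genera were called higher and 92 lower, against 43 and 166 in edgeR. Desulfovibrio fell under each of these scalings at both sites, and in the cecum the values ran from -6.38 to -7.06 with scaling, filter or replicate block changed. On centred log-ratios Bilophila in the colon was at -0.61 (SE 0.46) and lost its call (adjusted p = 0.215).

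When library set replaced light cycle as the block, Desulfovibrio in the colon fell by 6.08 (SE 0.86, edgeR adjusted p = 4.18e-07), with 77 of 258 genera passing. In that fit the variants with no genus name fell by 6.20 (SE 1.396, edgeR adjusted p = 0.000789) and Bilophila fell by 6.61 (SE 2.04, edgeR adjusted p = 0.0117). That fit rests on the 1 set with colon libraries of both diets. It held 2 chow libraries of LD24/0, with Desulfovibrio at 4.43% and 4.93%, and the 5 antibiotics libraries of LD8/16, at 0.0483% to 0.0900%, and the 2 did not overlap. In the set that held both sites, 4 colon chow libraries of LD8/16 ran from 2.03% to 18.1% and 4 cecum antibiotics libraries of LD0/24 from 0.0690% to 1.68%.

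Single variants differed in how far they fell. In the colon V1 fell by 6.16 (SE 0.42, edgeR, adjusted p over all variants = 1.49e-22), and its cecum share fell by 7.85 (SE 0.59, edgeR adjusted p = 1.52e-19). V2 fell by 5.51 in the colon (SE 0.57, edgeR adjusted p = 1.54e-13) and fell by 4.85 in the cecum (SE 0.76, edgeR adjusted p = 4.17e-08). V3 fell by 2.44 in the colon (SE 0.92, edgeR adjusted p = 0.0111), a call lost with TMMwsp factors (-0.68, adjusted p = 0.456). In the cecum V3 was at -1.23 ± 1.29 (SE) and did not pass (edgeR adjusted p = 0.352). Of the family's 367 variants, 22 were tested in the colon, where 87.1% of all 1222 variants tested passed, and 24 in the cecum, where 95% of 1246 passed. A variant that entered the test only through its chow libraries had to differ, so the number of family variants called is not a result.

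V1 kept a small and narrow share with antibiotics. Its mean share with antibiotics was 1.34% of its chow mean in the colon and 0.444% in the cecum, where the median for the 20 most abundant chow variants was 2.37% and 0.964%. V1 ran from 0.00905% over 0.0490% to 0.119% in the colon (mean 0.0544% ± 0.0225, SD, n = 29) and from 0.0149% over 0.0542% to 0.251% in the cecum (mean 0.0689% ± 0.0495, SD, n = 30). The coefficient of variation of V1 was 0.993 on chow and 0.413 with antibiotics in the colon, and 0.907 and 0.719 in the cecum. That of V2 was also lower with antibiotics, at 1.53 and 0.523 in the colon and 1.35 and 0.774 in the cecum, and no test was made of these values. Means of V1 in the 4 sets with over 2 colon antibiotics libraries lay between 0.0493% and 0.0577%. In the cecum the set means of V1 lay between 0.0477% and 0.101%, the highest being the 4 libraries that shared a set with chow libraries of the colon. The 2 cecum antibiotics libraries in no set, replicates 5 and 6 of LD24/0, had the highest V1 shares there, 0.251% and 0.184%. Whether counts move between libraries of a set was not tested, and it bears on every low share with antibiotics.

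V3 was uneven with antibiotics. It was at 0 in 16 of 29 colon and 20 of 30 cecum libraries, yet it reached 1.52% in replicate 4 of LD0/24 and 0.940% in replicate 4 of LD24/0 in the cecum, and 0.495% in replicate 4 of LD24/0 in the colon. Its mean in the cecum with antibiotics was 0.102% ± 0.322 (SD, n = 30), which is 136% of its chow mean, and in the colon 0.0322% ± 0.0933 (SD, n = 29), which is 14.6%. V3 thus made up most of Desulfovibrio in the 3 antibiotics libraries where the genus was highest, while V1 was above V3 in most others.

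**Figure D3:**
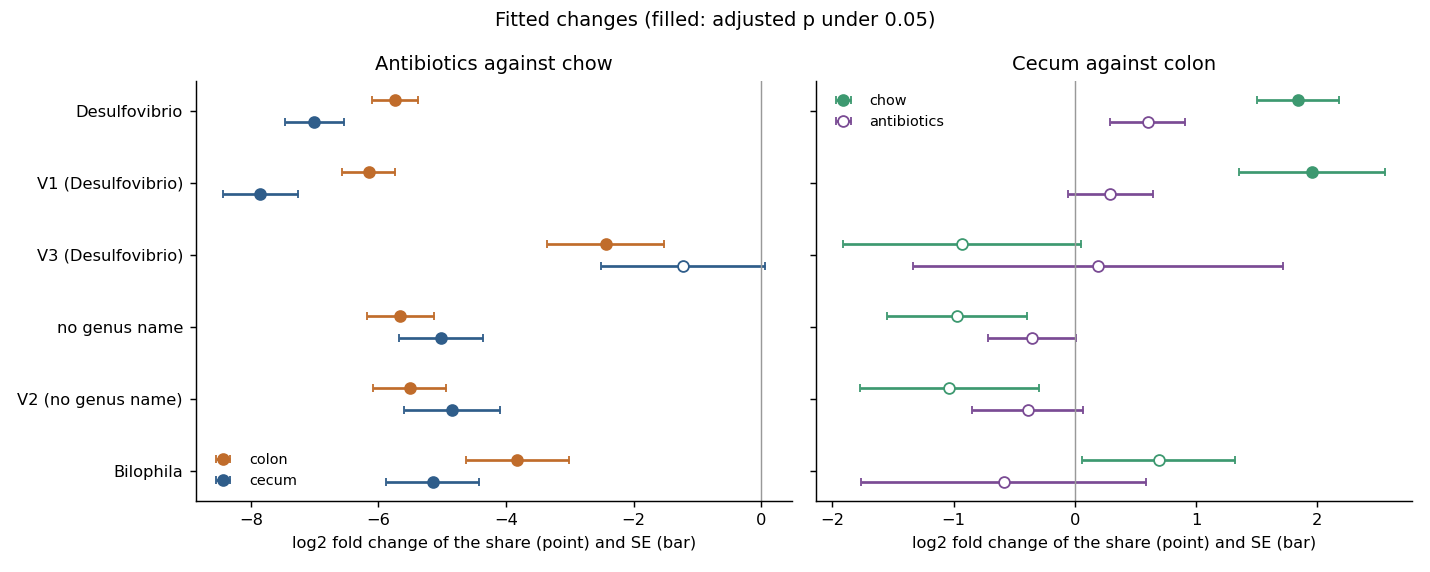
Fitted log2 fold changes (points) and SE (bars) for the 3 genus names and V1, V2 and V3, antibiotics against chow in each site (left) and cecum against colon on each diet (right). Filled points passed at an adjusted p under 0.05. V1 has the largest fall and V3 the smallest, and only Desulfovibrio and V1 are filled on the right.

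The makeup of the family shifted with antibiotics. V1 took 49.9% of family counts with antibiotics and 69.2% on chow in the colon (n = 29 and 30, permutation test within light cycles, adjusted p = 0.00594 over 4 comparisons), and 59.0% and 84.0% in the cecum (n = 29 and 31, 1 library with under 30 family counts being left out, permutation adjusted p = 0.00108). V3 took 13.8% and 2.95% in the colon (permutation adjusted p = 0.0131) and 14.97% and 0.807% in the cecum (permutation adjusted p = 0.0106). V2 took 22.8% with antibiotics and 10.6% on chow in the cecum (permutation adjusted p = 0.0162), and 31.9% and 23.1% in the colon, which did not pass (permutation adjusted p = 0.0602). Shares of the family do not depend on the rest of the community, but with antibiotics they rest on few counts and the sets apply to them as well. These 3 variants were added to the test after the data were seen.

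Bilophila took 1.70% of family counts with antibiotics and 0.328% on chow in the colon (n = 29 and 30, permutation adjusted p = 0.0236). In the cecum the shares were 0.669% and 0.328% and did not pass (n = 29 and 31, permutation adjusted p = 0.476). In libraries with at least 100 family counts, 4 of them with antibiotics, the colon shares were 2.76% and 0.328%, a larger difference that did not pass (permutation adjusted p = 0.0556).

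Bilophila consisted of 4 variants with unlike patterns. V9 was detected in 18 of 30 colon and 18 of 31 cecum libraries on chow, summing to 190 and 401 counts, and in 1 library of each site with antibiotics, with 3 and 4 counts. V12 was detected in 14 of 30 and 20 of 31 chow libraries and in 0 of 29 and 0 of 30 with antibiotics. Against a floor of 3 counts a library, V12 was at least 1.78-fold lower with antibiotics in the colon and at least 2.7-fold lower in the cecum. Both V9 and V12 entered the edgeR test only through their chow libraries, so their calls at both sites are not a result. V248 was counted in 1 cecum library on chow.

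V57 ran the other way. It was in 0 of 30 colon and 2 of 31 cecum libraries on chow and in 8 of 29 colon and 3 of 30 cecum libraries with antibiotics, with at most 7 counts in a library. Its colon mean with antibiotics was 0.00213%, below the floor of 3 counts a library, so no fold is given. Thus 8 of the 9 colon antibiotics libraries with Bilophila held V57. V58, a Desulfovibrio variant, was in 2 of 30 colon libraries on chow and 7 of 29 with antibiotics. V78, also Desulfovibrio, was in 0 of 31 cecum libraries on chow and 6 of 30 with antibiotics. None of the 3 variants could meet the filter without its antibiotics libraries, so their calls between diets are not a result. The 3 variants were named after their values were seen, and each rests on at most 11 counts in a library.

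Fewer variants of the family were seen with antibiotics. At a common depth of 39157 counts the expected number was 16.0 ± 11.1 (SD, n = 30) on chow and 3.13 ± 1.08 (SD, n = 29) with antibiotics in the colon. In the cecum it was 19.8 ± 7.46 (SD, n = 31) on chow and 2.86 ± 1.35 (SD, n = 30) with antibiotics. Each difference had a permutation p of 1e-05, the smallest the test can give (adjusted p = 2e-05). The number's Spearman correlation with the family's share was 0.792 in the colon (n = 30) and -0.381 in the cecum (n = 31) on chow, and with antibiotics 0.529 in the colon (n = 29) and 0.777 in the cecum (n = 30). The family's share was itself lower with antibiotics, and its part in the lower number was not tested. The cecum library with Desulfovibrio at 52.4% held 11 family variants, and the colon library with Desulfovibrio at 4.93% held 44, the most of any library on chow.

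The comparison of sites asked where along the gut the family was more abundant. Under chow the cecum exceeded the colon in Desulfovibrio by 1.84 ± 0.34 log2 units (SE, edgeR adjusted p = 3.29e-06) and lay above the colon mean in 25 of 31 cecum libraries. The variants with no genus name were at -0.97 ± 0.58 (SE, edgeR adjusted p = 0.186) and Bilophila at 0.69 ± 0.63 (SE, edgeR adjusted p = 0.431), and neither passed. Of 272 genera, 43.4% passed. Desulfovibrio was at 3.18 with TMMwsp factors, 2.67 with DESeq2 and 2.62 on centred log-ratios, where the median genus was at 0.57, 0.41 and 0.50 against -0.17 in edgeR with total counts. With TMMwsp factors 77 genera were called higher and 74 lower, against 37 and 81 with total counts. Bilophila did pass as higher in the cecum with TMMwsp factors (1.85, adjusted p = 0.0094), with DESeq2 (1.38, adjusted p = 0.0169) and on centred log-ratios (1.81, adjusted p = 0.00302). V1 was higher in the cecum by 1.96 ± 0.60 (SE, edgeR adjusted p = 0.00765) and V2 was at -1.03 ± 0.74 (SE, edgeR adjusted p = 0.369). Besides V1, 5 rarer variants passed as higher in the cecum, 6 of 36 tested where 26.1% of 1707 variants passed. These 5 did not meet the filter among colon libraries and entered the test through the cecum, so their calls are not a result.

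Within the family the balance also differed between sites on chow. V1 took 84.0% of family counts in the cecum and 69.2% in the colon (permutation adjusted p = 0.0187), and V2 took 10.6% and 23.1% (permutation adjusted p = 0.0162). Bilophila took 0.328% at both sites (permutation adjusted p = 0.998). The expected number of family variants did not pass between sites (permutation adjusted p = 0.173 on chow). Low-level genera took 2.38% of counts in the colon and 0.119% in the cecum on chow, and their part in these differences was not tested.

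With antibiotics none of the 3 genus names passed between sites. Desulfovibrio was at 0.60 ± 0.31 (SE, edgeR adjusted p = 0.111), the variants with no genus name at -0.35 ± 0.36 (SE, edgeR adjusted p = 0.523) and Bilophila at -0.59 ± 1.18 (SE, edgeR adjusted p = 0.773), where 46% of 215 genera passed. Leaving out LD16/8, Desulfovibrio passed at 0.88 (adjusted p = 0.0346). The variants with no genus name passed with TMMwsp factors (-0.91, adjusted p = 0.0272) and on centred log-ratios (-1.16, adjusted p = 0.0123), and Bilophila passed on centred log-ratios (-1.002, adjusted p = 0.0046). V58 was in 0 of 30 cecum libraries and V78 in 0 of 29 colon libraries. These were the 2 family variants called of 6 tested, where 47% of 598 variants passed. Each entered the test only through the site where it was counted, so these calls are not a result.

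The change with antibiotics was larger in the cecum than in the colon for Desulfovibrio, by -1.23 ± 0.44 log2 units (SE, edgeR interaction test, adjusted p = 0.0314), where 19.3% of 322 genera passed. The call was lost with light cycle as 1 shared factor (-1.05 ± 0.46, SE, adjusted p = 0.0588, with 42.9% of genera passing) and without a filter on low counts (adjusted p = 0.134). The value was larger with TMMwsp factors (-3.39, adjusted p = 2.27e-08) and with DESeq2 (-1.90, adjusted p = 0.00016), where the median genus was at -1.24 and -0.49. In a fit of single variants of that kind V1 passed at -1.60 ± 0.58 (SE, edgeR adjusted p = 0.0346), where 19.3% of 2008 variants passed. The variants with no genus name were at 0.78 (adjusted p = 0.449) and Bilophila at -1.77 ± 0.96 (SE, adjusted p = 0.137).

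The last question was whether day length altered the family. On chow no such change was detectable. In the colon the mean share of Desulfovibrio was 5.03% ± 5.48 under LD0/24, 6.24% ± 6.70 under LD8/16, 4.00% ± 2.91 under LD12/12, 3.49% ± 2.42 under LD16/8 and 3.42% ± 1.07 under LD24/0 (SD, n = 6 each). In the cecum it was 19.8% ± 13.3 (SD, n = 6), 18.4% ± 18.4 (SD, n = 7), 14.0% ± 15.02 (SD, n = 6), 11.7% ± 9.36 (SD, n = 6) and 15.1% ± 15.3 (SD, n = 6) in the same order. All groups of a site overlapped, and light cycles next to each other in the order of their means differed by less than their SD.

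For any difference among light cycles, Desulfovibrio had an edgeR adjusted p of 0.907 in the colon and 0.942 in the cecum on chow, where 22.1% of 222 and 15.7% of 185 genera passed. Neither Bilophila nor the variants with no genus name passed, and no contrast with LD12/12 passed for any of the 3. Among all genera 1.8%, 0%, 3.6% and 18% passed in the colon under LD0/24, LD8/16, LD16/8 and LD24/0, and 0%, 0%, 0% and 3.78% in the cecum. The log2 changes of Desulfovibrio against LD12/12 ran from -0.22 to 0.64 in the colon and from -0.25 to 0.50 in the cecum, with SE of 0.72 to 0.78, so changes of this size could not be told from 0 in groups of 6. With the set as a block, Desulfovibrio in the colon on chow did not pass either (edgeR adjusted p = 0.726), and 0 of 221 genera did, 23 having an unadjusted p under 0.05. Among single variants V24 passed for any light cycle in the colon, 1 of 20 tested where 16.5% of 1055 passed, and V18, V21, V22, V36 and V47 in the cecum, 5 of 23 tested where 19% of 925 passed. No family variant passed in a contrast with LD12/12 on chow, where of all variants 0.108% passed under LD0/24 in the cecum and 0% in the other contrasts.

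**Figure D4:**
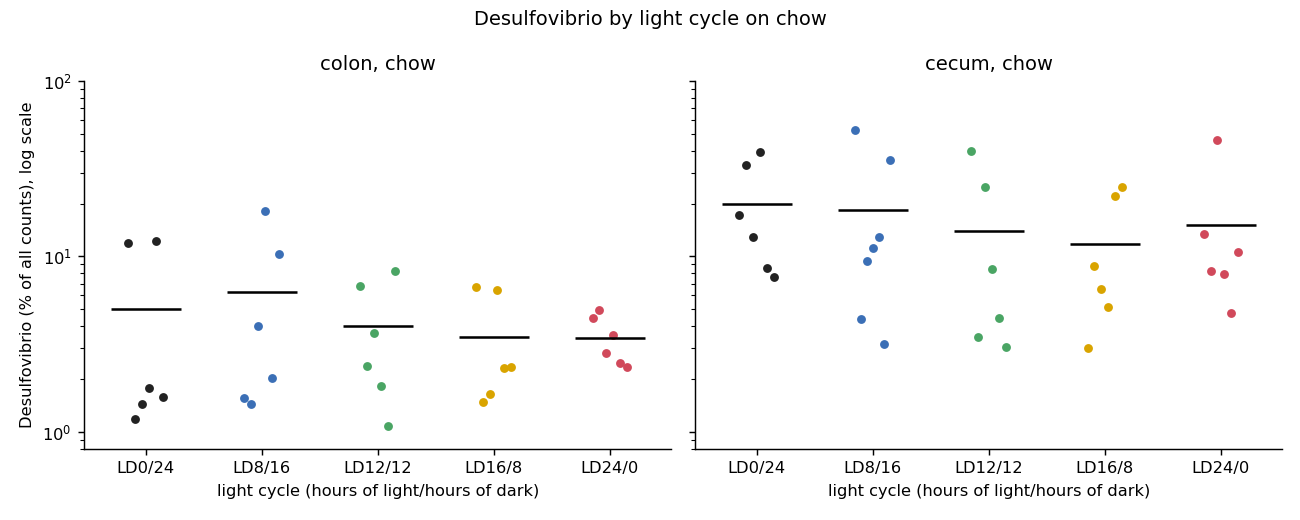
Desulfovibrio share of counts (%, log scale) on chow by light cycle in the colon and cecum. Points are libraries and bars are means. The 5 light cycles overlap at both sites, and cecum libraries reach 52.4%.

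With antibiotics, Desulfovibrio differed among light cycles at both sites. In the colon it ran from 0.0411% to 0.0714% under LD12/12 (median 0.0454%, n = 6) and from 0.0656% to 0.557% under LD24/0 (median 0.106%, n = 6). The highest library, replicate 4 of LD24/0, held 0.495% V3, and the 2 groups overlapped. For any light cycle the edgeR adjusted p was 0.0246, where 31.9% of 144 genera passed, and LD24/0 was higher than LD12/12 by 1.82 ± 0.49 (SE, edgeR adjusted p = 0.0152), where 17.4% passed. Without replicate 4 of LD24/0 the change was 0.98 (edgeR adjusted p = 0.135) and the p for any light cycle 0.489. With the set as a block the change was 2.18 ± 1.13 (SE, edgeR adjusted p = 0.496) and the p for any light cycle 0.562, and LD24/0 and LD12/12 shared no set. Desulfovibrio did not pass under LD0/24, LD8/16 or LD16/8, at log2 values of 0.48 to 0.62, where 13.2%, 8.33% and 0.694% of genera passed.

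In the cecum with antibiotics Desulfovibrio ran from 0.0391% to 0.0944% under LD12/12 (median 0.0492%, n = 6), from 0.0690% to 1.68% under LD0/24 (median 0.116%, n = 6) and from 0.0558% to 0.986% under LD24/0 (median 0.262%, n = 6). Both groups overlapped with LD12/12. For any light cycle the edgeR adjusted p was 0.00151, where 17.7% of 158 genera passed, and it lay between 0.000779 and 0.00312 with any 1 library left out. LD0/24 was higher than LD12/12 by 2.72 ± 0.74 (SE, edgeR adjusted p = 0.0493), where 1.27% of genera passed, and LD24/0 by 2.56 ± 0.73 (SE, edgeR adjusted p = 0.0252), where 7.59% passed. LD8/16, at 0.46, and LD16/8, at -0.03, did not pass, where 8.86% and 0% of genera did.

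The contrast of LD0/24 rested on replicate 4, at 1.68% with 1.52% V3: without it the change was 0.92 (edgeR adjusted p = 0.609). The call was also lost without any one of the 6 LD12/12 libraries, at adjusted p values of up to 0.0996, since it lay near the threshold. For LD24/0 it was lost without its replicate 4 (1.83, edgeR adjusted p = 0.0954) and without replicate 1, 4 or 6 of LD12/12 (adjusted p up to 0.0534). The LD24/0 libraries were unlike in makeup, with V3 at 0.940% and 0.324% in replicates 4 and 3, and V1 at 0.251% and 0.184% in replicates 5 and 6. With the set as a block the p for any light cycle was 0.515 and LD24/0 was at 2.09 ± 1.21 (SE, edgeR adjusted p = 0.421). LD0/24 shares no chain of sets with LD12/12, so its light cycle and set cannot be told apart.

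Of the variants in the cecum with antibiotics, V3 passed across light cycles (edgeR adjusted p = 0.0463, 33.8% of 402 variants passing) and for LD0/24 against LD12/12 (adjusted p = 0.0456, 16.7% passing), and not for LD24/0 (adjusted p = 0.0515). It was counted in 3, 1, 1, 1 and 4 of 6 libraries under LD0/24, LD8/16, LD12/12, LD16/8 and LD24/0. Under LD0/24 replicate 4 held 1.52% V3, the median of replicates 1 to 4 was 0.0142%, and replicates 5 and 6 had none. No fit of V3 without replicate 4 is given here. V78 passed there across light cycles (edgeR adjusted p = 0.00945) and for LD8/16 (adjusted p = 0.0447, 20.4% passing), being in 4 of 6 libraries of LD8/16, 2 of 6 of LD0/24 and in no others. In the colon V58 passed across light cycles (edgeR adjusted p = 0.0211, 29.4% of 306 passing) and for LD24/0 (adjusted p = 0.0406, 13.4% passing), being in 5 of 6 libraries of LD24/0 and 2 of 6 of LD0/24. V57 passed there across light cycles and for LD24/0 as well (edgeR adjusted p = 0.0383 and 0.0424), and no family variant passed under LD0/24, LD8/16 or LD16/8, where 15.4%, 5.88% and 0% of variants did. LD24/0 and 2 libraries of LD0/24 made up 1 set in the colon, and LD8/16 and 2 libraries of LD0/24 made up 1 set in the cecum. Without the light cycle in which each passed, V57, V58 and V78 would not have met the filter, so these calls are not a result.

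**Figure D5:**
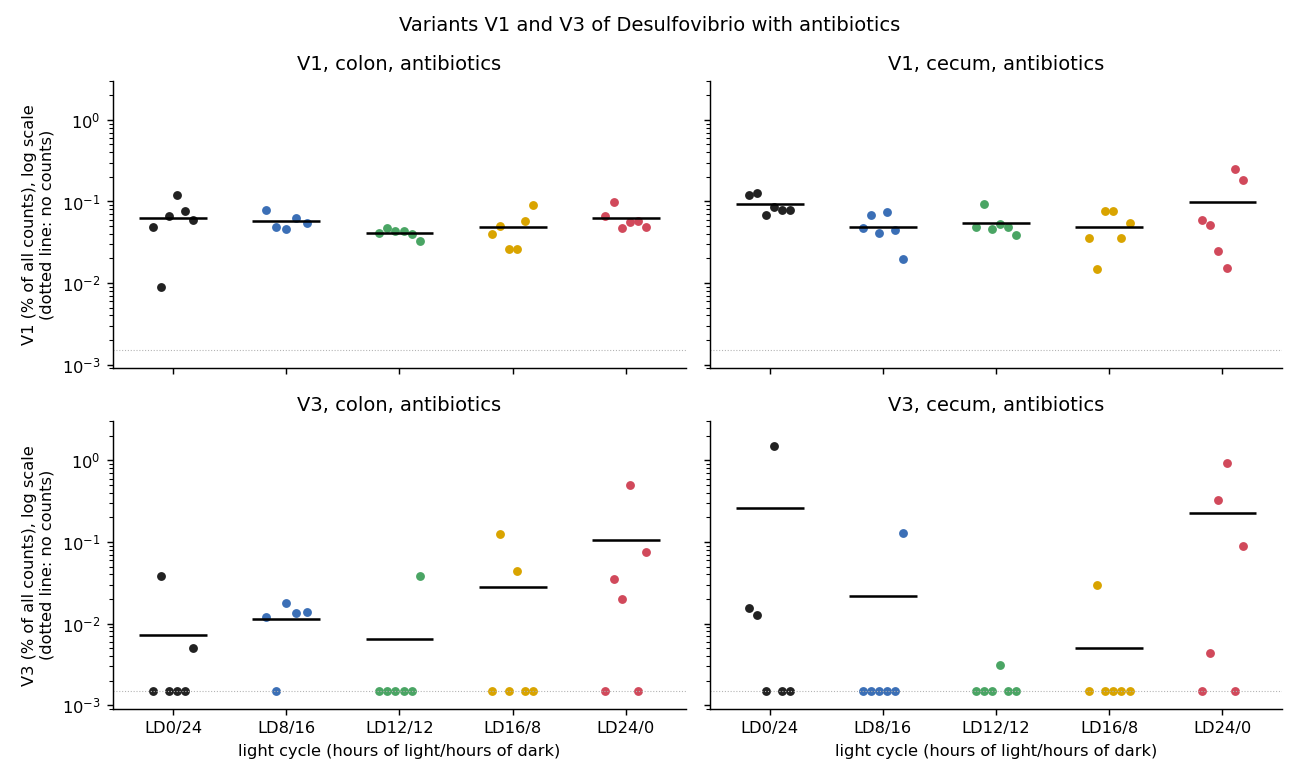
Shares of counts (%, log scale) of the Desulfovibrio variants V1 (top) and V3 (bottom) with antibiotics by light cycle. Points are libraries, bars are means and points on the dotted line had no counts. V1 stays within 0.00905% to 0.251%, while V3 is absent from most libraries and reaches 1.52% in one.

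Bilophila with antibiotics was called across light cycles in the colon (edgeR adjusted p = 0.0205 for any light cycle), where 31.9% of 144 genera passed. It was detected in 5 of 6 libraries of LD24/0, 3 of 6 of LD0/24, 1 of 6 of LD16/8, 0 of 5 of LD8/16 and 0 of 6 of LD12/12. The LD24/0 libraries held 0 to 7 counts, 26 in all, a mean of 0.00686%, at least 1.4-fold above the floor of 3 counts a library in LD12/12 (edgeR adjusted p = 0.0277). LD0/24, with 12 counts in all, did not pass (edgeR adjusted p = 0.0523), where 13.2% of genera did. Of the 9 libraries with Bilophila, the 5 of LD24/0 and 2 of the 3 of LD0/24 lay in 1 set, and with the set as a block Bilophila did not pass for any light cycle (edgeR adjusted p = 1). Without LD24/0 Bilophila would not have met the filter in the colon, so its calls across light cycles and for LD24/0 are not a result. It was too rare to be tested in the cecum with antibiotics.

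The summed share of the family gave a like picture. Of 16 contrasts with LD12/12, 1 passed an exact permutation test adjusted over the 4 contrasts of its site and diet, LD0/24 in the cecum with antibiotics, at 0.413% ± 0.647 against 0.0750% ± 0.0269 (SD, n = 6 each, exact permutation adjusted p = 0.026). It was lost without any one of the 6 LD12/12 libraries, at exact permutation adjusted p values of 0.153 to 0.268, with the difference still at 0.334 to 0.348 percentage points. Without replicate 4 of LD0/24 the difference went from 0.338 to 0.0747 percentage points and still passed (exact permutation adjusted p = 0.0346). LD24/0 in the cecum with antibiotics was at 0.353% ± 0.358 (SD, n = 6, exact permutation adjusted p = 0.0563) and in the colon at 0.203% ± 0.185 against 0.0905% ± 0.0224 (SD, n = 6 each, exact permutation adjusted p = 0.208).

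For V1 alone, in the colon with antibiotics, LD8/16 at 0.0577% ± 0.0129 (SD, n = 5) and LD24/0 at 0.0621% ± 0.0191 (SD, n = 6) passed against LD12/12 at 0.0413% ± 0.00492 (SD, n = 6, exact permutation adjusted p = 0.00866 each). In the cecum V1 under LD0/24 was at 0.0935% ± 0.0247 against 0.0552% ± 0.0198 (SD, n = 6 each, exact permutation adjusted p = 0.0519). The 2 colon contrasts were the 2 of 48 contrasts of single variants that passed, chosen as an addition after the data were seen. In both the groups lay in different sets, and the edgeR fit of single variants called V1 in neither.

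Light cycle and diet together did not pass for any of the 3 genus names. The light-by-diet test gave Desulfovibrio an edgeR adjusted p of 0.355 in the colon and 0.176 in the cecum, where 11.6% of 258 and 11% of 255 genera passed. As a trend over hours of light, Desulfovibrio in the colon with antibiotics was at 0.049 log2 units per hour (edgeR adjusted p = 0.154), and no genus name of the family passed in any site and diet. Of all genera 0.45% passed for hours of light in the colon on chow and 6.25% there with antibiotics, and the cecum had 9.73% on chow and 8.86% with antibiotics.

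Other genera with related roles gave the setting of the family. The list of related genus names held 5 others of Desulfobacterota and unclassified Deltaproteobacteria. Of these 6, 1 was frequent enough to be tested between diets, unclassified Desulfuromonadaceae. It passed as higher with antibiotics in the colon (edgeR adjusted p = 0.0431), in 5 of 29 libraries against 2 of 30 on chow, with both means below the floor of 3 counts a library. It could not meet the filter without its antibiotics libraries, so this call is not a result. Acetogens, which use the same hydrogen, were 2 of 5 listed genera in the table: Blautia fell by 3.54 (colon) and fell by 2.66 (cecum), and Marvinbryantia fell by 2.16 and fell by 2.98. Marvinbryantia was in 2 of 29 colon and 1 of 30 cecum libraries with antibiotics. It could not meet the filter without its chow libraries, so its calls are not a result. The methanogens on the list, Methanobrevibacter and Methanosphaera, and the acetogen Acetitomaculum were not among the genus names of the table. This does not show that they were absent from the gut. Of 6 lactate producers tested in the colon with antibiotics, 2 rose and 4 fell, and of 5 in the cecum 2 rose and 2 fell (median log2 -2.92 and 0.26). Limosilactobacillus, which rose in the cecum, was in 2 of 31 chow libraries there and met the filter through antibiotics, so that call is not a result. Among all genera, 43 rose and 166 fell of 258 in the colon, and 85 rose and 148 fell of 255 in the cecum. Ligilactobacillus fell by 5.57 and fell by 5.30, and Lactobacillus fell by 4.28 and fell by 4.18.

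Genera known for releasing sulfide from cysteine were mostly called the other way. With antibiotics 3 of 5 tested rose and 1 fell in the colon, and 4 of 6 rose and 1 fell in the cecum (median log2 1.35 and 4.98, against -3.62 and -2.87 over all genera). In the cecum Citrobacter was in 0 of 31 and Enterobacter in 3 of 31 chow libraries, and Proteus in 0 of 30 with antibiotics. These 3 met the filter through 1 diet only, so their cecum calls are not a result. Klebsiella rose by 5.72 and 9.88, and Fusobacterium fell by 5.93 in the colon and rose by 5.46 in the cecum. Of 7 genera that feed on mucin or live in mucus, whose sugars carry sulfate, 2 rose and 5 fell in the colon and 2 rose and 4 fell in the cecum (median log2 -4.41 and -1.77), Parabacteroides rising by 4.70 and 8.26 and Akkermansia falling, at -4.41 and -6.77. Muribaculum was in 3 of 29 colon and 4 of 30 cecum antibiotics libraries, Mucispirillum in 1 and 4, and Prevotella in 0 of 29 in the colon. These met the filter only through chow there, so those calls are not a result. Fusobacterium, and Limosilactobacillus and Bifidobacterium of the lactate producers, are also among the 12 low-level genera that define the sets.

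Genera with a pattern like that of Desulfovibrio were sought among the 60 genera with a mean of at least 0.1% on chow. Over the 20 group means the highest Spearman correlations were with Odoribacter (0.925), Rikenella (0.917), Acetatifactor (0.914), Alistipes (0.898) and Enterorhabdus (0.884), and the lowest with Klebsiella (-0.866). These group means share the 2 levels of diet. Among the 61 chow libraries, after group means were removed, the highest Pearson correlations of depth-scaled log2 counts were with Enterorhabdus (0.549), Candidatus Saccharimonas (0.508) and Rikenella (0.307), and the lowest with Negativibacillus (-0.481). They are descriptions over libraries that share depth and set.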

How the data were processed

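Counts of reads per amplicon sequence variant were deposited by the authors in 1 table of 120 samples with a taxonomy for each variant; per the labels, full-length 16S libraries were made with Pacific Biosciences SMRTbell kits from gut contents, though the extraction text speaks of rumen digesta. No source used here names the denoising tool. The lowest count above 0 was 2, and no pair of the 301 within groups was identical. Members were the variants named Desulfovibrionaceae, and 629 unclassified variants, at most 0.441% of a sample, stayed in the totals.

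Counts were summed by genus and fitted with edgeR 4.0.16 (R 4.3.3) by quasi-likelihood, with total counts as library sizes, light cycle as a factor in comparisons of diet and site, and genera kept with at least 3 counts in at least 5 samples. P-values were Benjamini-Hochberg adjusted over all genera or variants and read at 0.05. Alternatives were TMMwsp factors, DESeq2 1.42.0, no filter, limma 3.58.1 on centred log-ratios, a replicate block, single light cycles or libraries left out and the library set as a block. Shares were tested by permutation (100000 resamples within light cycles) or exactly with SciPy 1.17.1. Scripts were tested on simulated data. The diet by site interaction as designed could not be fitted for Bilophila.

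Named features were the genus names of the family, its 10 most abundant variants and the top variant of each genus name, and genera most like Desulfovibrio. V57, V58, V78, other variants called, the library sets and the tests that use them were chosen after the data were seen. The members and lists were chosen with earlier results of these data known. No sequence is printed, since the family is bacterial.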

Additional observations from a re-analysis of the deposited data

Results flagged for a closer look

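The 3 genus names were each checked in the 20 groups of 5 to 7 libraries, and in 19 of these 60 checks 1 library stood apart from the rest of its group by Dixon's criterion. Chance flags about 1 in 20 groups, and values at or near 0 in the other libraries make such flags more frequent.

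For Desulfovibrio with antibiotics, these were colon replicate 4 of LD0/24 at 0.119% (next 0.0770%), replicate 6 of LD12/12 at 0.0714% (next 0.0501%) and replicate 4 of LD24/0 at 0.557% (next 0.138%). In the cecum they were replicate 4 of LD0/24 at 1.68% (next 0.141%), replicate 2 of LD12/12 at 0.0944% (next 0.0565%) and replicate 4 of LD24/0 at 0.986% (next 0.348%). On chow it was cecum replicate 3 of LD24/0 at 45.9% (next 13.5%).

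For Bilophila on chow they were cecum replicate 2 of LD0/24 at 0.0286% (next 0.0148%), replicate 3 of LD8/16 at 0.0992% (next 0.0343%) and replicate 2 of LD16/8 at 0.160% (next 0.0581%). With antibiotics the only library of its group with Bilophila counts was colon replicate 4 of LD16/8 at 0.00486%, and in the cecum replicate 2 of LD0/24 at 0.00642%, replicate 5 of LD8/16 at 0.00920%, replicate 5 of LD12/12 at 0.00318% and replicate 1 of LD16/8 at 0.00297%.

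For the variants with no genus name they were colon replicate 1 of LD8/16 at 14.1% (next 3.16%) and replicate 2 of LD24/0 at 6.26% (next 1.45%) on chow, and in the cecum on chow replicate 3 of LD0/24 at 2.70% (next 0.786%) and replicate 5 of LD24/0 at 2.37% (next 0.470%).

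The change of Desulfovibrio with antibiotics differed between the sites, by -1.23 on the log2 scale (edgeR interaction test, adjusted p = 0.0314).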

How the results depend on the processing

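Desulfovibrio and the variants with no genus name kept their fall with antibiotics under every alternative run at both sites, and Desulfovibrio its rise from colon to cecum on chow. Counts of genera called moved by over 1.5 times, from 209 to 77 for diet in the colon with the set as a block, from 118 to 186 for site on chow without a filter and from 62 to 138 for the interaction with a shared light factor. With antibiotics Desulfovibrio passed between sites without LD16/8 (0.88, adjusted p = 0.0346), Bilophila turned to 0.38 without LD24/0, and the site difference of V1 and V3 to -0.12 and -0.33 with TMMwsp factors. The interaction of Desulfovibrio was -1.23 without a filter, -1.05 with a shared light factor, -3.39 with TMMwsp factors and -1.90 with DESeq2. Variants called fell from 1184 to 782 (diet in cecum) and from 445 to 267 (site on chow) at a minimum of 10 counts.

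Among the 3 genus names the replicate block changed calls for Desulfovibrio with antibiotics and for no other. Same-numbered colon and cecum libraries correlated over 0.1 in 9 of 30 pairs on chow and 4 of 29 with antibiotics. Of all pairs, 5 and 1 correlated best with their own number, so the numbers were not used as pairs. The labels do not say whether equal numbers are the same mouse, and these correlations cannot decide it. Under the block Desulfovibrio had an adjusted p of 0.150 for any light cycle in the colon, and was at 1.73 (0.193) for LD0/24 and 2.03 (0.0776) for LD24/0 in the cecum. Genera called fell under the block from 46 to 26 (any light, colon), 19 to 5 (LD0/24), 12 to 6 (LD8/16) and 1 to 0 (LD16/8) with antibiotics. In the cecum they fell from 29 to 16 on chow, and with antibiotics from 2 to 1 (LD0/24) and 12 to 7 (LD24/0). Changes that did not pass turned sign: Bilophila -0.42 (LD16/8) and variants with no genus name -0.54 (LD8/16) in the colon on chow, Bilophila -0.22 (LD8/16) in the colon with antibiotics, and Desulfovibrio 0.60, Bilophila -0.22 and variants with no genus name 0.74 (LD16/8) in the cecum on chow.

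Desulfovibrio in the colon with antibiotics also lost its call for any light cycle with TMMwsp factors (0.0845), without a filter (0.0698) and with the set block (0.562), and LD24/0 lost it without a filter (1.82, 0.0636) and with the set block (2.18, 0.496). In the cecum the set block gave 0.515 for any light cycle and 2.09 (0.421) for LD24/0, and TMMwsp factors gave 2.36 (0.0604) for LD0/24. Genera called with antibiotics in the colon were 6 for any light cycle, 0 for LD0/24, 0 for LD16/8 and 3 for LD24/0 with the set block, 4 for LD0/24 and 4 for hours of light (from 9) with TMMwsp factors, 5 for LD0/24 and 14 for LD24/0 (from 25) without a filter and 4 for LD16/8 with DESeq2. In the cecum with antibiotics they were 55 without a filter and 0 with the set block for any light cycle (from 28), 1 with TMMwsp factors, 4 with DESeq2 and 8 without a filter for LD0/24, 0 with the set block for LD24/0, and 24 for hours of light without LD0/24 and LD24/0 (from 14). On chow they were 95 without a filter and 0 with the set block in the colon (from 49), and 11 with DESeq2 and 128 without a filter in the cecum.

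Other changes that did not pass turned sign. In the colon on chow these were Bilophila at 0.16 (LD0/24) and 0.059 (LD8/16) with TMMwsp factors and 0.097 (LD8/16) with the set block, variants with no genus name at 0.071 (LD24/0, TMMwsp) and -0.10 per hour without LD0/24 and LD24/0, and Desulfovibrio at -1.41 (LD8/16, set block), 0.64 (LD24/0, TMMwsp) and 0.24 (LD24/0, DESeq2). With antibiotics variants with no genus name were at 0.0063 (LD16/8, colon, DESeq2), and Desulfovibrio in the cecum at 0.28 (TMMwsp) and 0.092 (DESeq2) for LD16/8 and 0.013 per hour (TMMwsp). In the cecum on chow they were -0.014 per hour for variants with no genus name (TMMwsp) and 0.031 for the summed share under LD24/0 on a log2 scale. Bilophila's share of the family was 2.43 percentage points higher with antibiotics in the colon at 100 family counts (permutation p adjusted 0.0556). In the cecum at 100 family counts the diets differed by 0.0366 percentage points (permutation p adjusted 0.998). On a logit scale Bilophila's share differed by 1.91 between diets in the cecum (permutation p adjusted 2e-05). The logit differed by -0.36 between sites on chow and by -0.63 between sites with antibiotics (permutation p adjusted 0.0449). A share of 0 has a logit only through an added constant, so with most antibiotics libraries at 0 these values depend on the family's counts. They cannot decide whether Bilophila's share differed.

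With 1 library left out, Desulfovibrio with antibiotics ran from 0.98 to 1.99 for LD24/0 in the colon, with p for any light cycle from 0.0119 to 0.489, and from 0.92 to 2.94 (LD0/24) and 1.83 to 2.78 (LD24/0) in the cecum. The summed share with antibiotics in the cecum differed by 0.0747 to 0.399 (LD0/24), 0.0240 to 0.0519 (LD8/16), -0.00391 to 0.0115 (LD16/8) and 0.141 to 0.336 (LD24/0) percentage points. On chow it ran from -2.22 to 0.713 (LD0/24), -2.49 to 0.536 (LD16/8) and -2.57 to 0.204 (LD24/0) in the colon and from -2.31 to 7.95 (LD8/16), -5.65 to 1.51 (LD16/8) and -6.25 to 4.50 (LD24/0) in the cecum. The variants with no genus name under LD24/0 in the cecum with antibiotics ran from -0.0877 to 0.792. The cause of these changes was not tested. A library's 39157 to 73076 counts leave Bilophila with antibiotics near or under the 3 counts that a count of 0 allows.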
